A study of Mus musculus with 2 samples.

Results

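The BCL2 family sets whether a cell's mitochondria release the factors that start apoptosis. Described here are 10 of its genes in mouse spleen cells. They were taken by gene symbol from the 32285 gene rows of each library, and all 10 had a row. The choice was made with earlier results of these data known. They comprise the pro-survival genes Bcl2, Bcl2l1 (BCL-XL), Mcl1 and the 3 copies of A1 (Bcl2a1a, Bcl2a1b and Bcl2a1d), the BH3-only genes Bcl2l11 (BIM), Bmf and Bid, and the effector gene Bak1. Immune cells of the spleen of C57BL/6 mice were profiled by 3′ droplet single-cell RNA sequencing in 1 library labelled as an RPA1 conditional knockout (CKO) and 1 library labelled WT. RPA1 belongs to the RPA complex, which coats single-stranded DNA while it is copied or repaired. The labels name no treatment of the mice, and they give neither the Cre driver, the deleted exons, the age nor the number of animals pooled. Because each genotype is 1 library, genotypes could not be tested against each other, no p-value is given, and every value describes these 2 libraries.

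In healthy lymphocytes the pro-survival proteins bind the BH3-only proteins and the effectors BAX and BAK, and hold them inactive. BIM and BMF rise when growth factors or contact signals are withdrawn, BID is cut by caspases downstream of death receptors, and free BH3-only proteins let BAX and BAK open the outer mitochondrial membrane. Resting T cells depend on BCL2 sustained by interleukin-7 and on MCL1, B cells lean on MCL1 and on A1 after activation, and A1 is a target of NF-κB that antigen receptor signals induce.

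The 3 A1 copies lie within one stretch of chromosome 9 and are near-identical, so their sequences show how far their counts can be separated. In the mm10 annotation Bcl2a1d spans 88723285 to 88731914 (minus strand), Bcl2a1a 88956900 to 88962419 and Bcl2a1b 89199209 to 89207827 (both plus strand). Their coding sequences of 516 bases differ at 12 positions in all, of which 6 fall in the first 90 bases, written below 5′ to 3′ with capitals at the positions where the copies differ (GENCODE M21 transcripts, GRCm38).
Bcl2a1a: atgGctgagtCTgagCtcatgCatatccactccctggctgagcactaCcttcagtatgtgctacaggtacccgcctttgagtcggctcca
Bcl2a1b: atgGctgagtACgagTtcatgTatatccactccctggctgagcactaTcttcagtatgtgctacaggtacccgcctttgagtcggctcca
Bcl2a1d: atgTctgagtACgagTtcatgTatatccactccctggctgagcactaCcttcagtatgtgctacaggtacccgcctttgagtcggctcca

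Coding identity was 97.9% between Bcl2a1a and Bcl2a1b, 98.6% between Bcl2a1a and Bcl2a1d and 98.8% between Bcl2a1b and Bcl2a1d. Near the 3′ end, where this kit reads, many stretches did not tell the copies apart. Of the 211 windows of 90 bases in the last 300 bases of each transcript, 127 of Bcl2a1a, 105 of Bcl2a1b and 22 of Bcl2a1d matched neither of the other copies nor Bcl2a1c, a further copy outside the 10 genes. The split between the copies is therefore uncertain. Their sum does not depend on that split, but it would be too low if reads that match several copies went uncounted. How such reads were counted was not tested. Both the split and the sum are given below.

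Bcl2, the member with the most calls of a single gene below, spans chromosome 1, 106538178 to 106714274, minus strand (mm10). The bases ahead of its start site in RefSeq (GRCm38.p6, chr1:106714291-106714540, minus strand, 250 bases, written 5′ to 3′) are shown with capitals at the only match to 4 motifs searched in its promoter window.
Bcl2 promoter: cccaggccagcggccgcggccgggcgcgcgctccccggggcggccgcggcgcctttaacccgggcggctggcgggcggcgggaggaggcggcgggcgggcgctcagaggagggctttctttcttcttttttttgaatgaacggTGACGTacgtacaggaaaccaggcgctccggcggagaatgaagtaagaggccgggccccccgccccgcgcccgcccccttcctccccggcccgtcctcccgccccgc

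The capitals mark TGACGT, the core of a cAMP response element, which starts 107 bases ahead of the start site. It was found in 7.55% of 32544 RefSeq promoter windows of the same length. The other letters searched, on both strands, were TTCNNNGAA (bound by STAT factors, in 8.33% of windows), TGTTTAC (FOXO, 3.66%) and TGACTCA (AP-1, 5.19%). All 10 members matched to 15 promoter windows, and beside that in Bcl2 the only match was a TGTTTAC in a Bcl2l11 window, 227 bases ahead of its start. A match describes letters in a window and says nothing of binding.

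The CKO library held 12958 barcodes with 76910129 UMIs (unique molecular identifiers, each counting 1 captured RNA molecule) and the WT library 13291 barcodes with 84240951 UMIs. After the cell filter and removal of likely doublets, 11317 CKO and 11285 WT cells remained, with a median of 4499 UMIs per CKO cell and 5334 UMIs per WT cell. The libraries shared 36 barcodes. Cells were placed into 24 classes by exclusive gates on lineage genes, none of them a BCL2 family gene, and the 19 of them that reached 30 cells in each library were compared. T cells past the lineage gate made up 7.12% of CKO cells (806) and 32.1% of WT cells (3620), so T cell values rest on far fewer cells in the CKO library. Rpa1 was read at 33.6 CPM (UMIs per 1000000 UMIs of the class) in CKO CD4 T cells and 45.6 CPM in WT CD4 T cells, a ratio of 0.74 (0.55 to 0.97), and its ratio was 0.98 in CD8 T, 0.87 in NK and 0.95 in all B cells. A 3′ tag outside the deleted part would not register a deletion, so this does not check the genotype. Rpa1 and the sex-linked Xist and Eif2s3y together summed to 55.6 CPM in CKO and 118.8 CPM in WT CD4 T cells, with no Xist UMI in either. In all B cells they summed to 52.2 CPM in CKO and 124 CPM in WT cells. Both sums include Rpa1. As Xist was absent from CD4 T cells and Rpa1 differed less than the sum, the gap there lay mostly in Eif2s3y, which was read in both libraries. The source of this difference in sex-linked RNA was not tested.

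Several classes carried RNA of other cells, and these values stand beside the results they touch. The gate on erythroid genes also collected cells with cytotoxic transcripts, at 3200 CPM Gzma in CKO and 2731 CPM in WT cells, so it is called the mixed Car2 gate and not a cell type. Classical monocytes held 996 CPM Gzma in the CKO and 676 CPM in the WT library beside their own Lyz2 at 23589 CPM in CKO and 26654 CPM in WT cells. In CKO CD4 T cells a list of 6 myeloid genes summed to 2505 CPM, against 135 CPM in WT CD4 T cells, and 1 CKO cell with neutrophil RNA met the criterion for leaving such cells out. Of the markers kept for checking, Cd40lg, Cd5 and Tcf7 were all present in CD4 T cells, at a summed 953 CPM in CKO and 908 CPM in WT cells. They also summed to 537 CPM in CKO and 580 CPM in WT CD8 T cells, so they do not separate CD4 from other T cells. Ly6c2 and Dapl1, kept for CD8 T cells, summed there to 875 CPM in CKO and 1206 CPM in WT cells. They gave 192 CPM in CKO and 351 CPM in WT CD4 T cells, and 1103 CPM in CKO and 437 CPM in WT γδ T cells.

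Each member had its own distribution over the spleen's cells, with much the same classes at the top for Bcl2, Mcl1 and the A1 copies in both libraries but not for Bcl2l1 and Bcl2l11 (plot of levels by class). Bcl2 was highest in γδ T cells, at 546 CPM in CKO and 333 CPM in WT cells, and next in memory CD8 T cells, at 489 CPM in CKO and 295 CPM in WT cells. It was lowest in neutrophils, at 6.31 CPM in CKO and 2.52 CPM in WT cells, and in cDC2, at 14.2 CPM in CKO and 6.61 CPM in WT cells. In the CKO library the Bcl2 intervals of γδ T (496 to 600 CPM) and memory CD8 T cells (416 to 570 CPM) overlapped. In the WT library those of γδ T (261 to 418 CPM) and memory CD8 T cells (280 to 311 CPM) did too, so their order is not resolved. The interval after a CPM value or a ratio is an exact 95% interval and covers counting error only.

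Mcl1, whose short-lived protein binds BIM and BAK, ran in another order. It was highest in transitional B cells, at 847 CPM in CKO and 800 CPM in WT cells, and in non-classical monocytes, at 835 CPM in CKO and 802 CPM in WT cells, and lowest in neutrophils, at 219.7 CPM in CKO and 202 CPM in WT cells. The A1 copies were concentrated in cDC2, where their sum reached 1395 CPM in CKO and 1528 CPM in WT cells, while NK cells gave 9.88 CPM in CKO and 13.2 CPM in WT cells. cDC2 thus carried the most A1 and almost no Bcl2, while T and NK cells carried much Bcl2 and less A1.

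**Figure D1:**
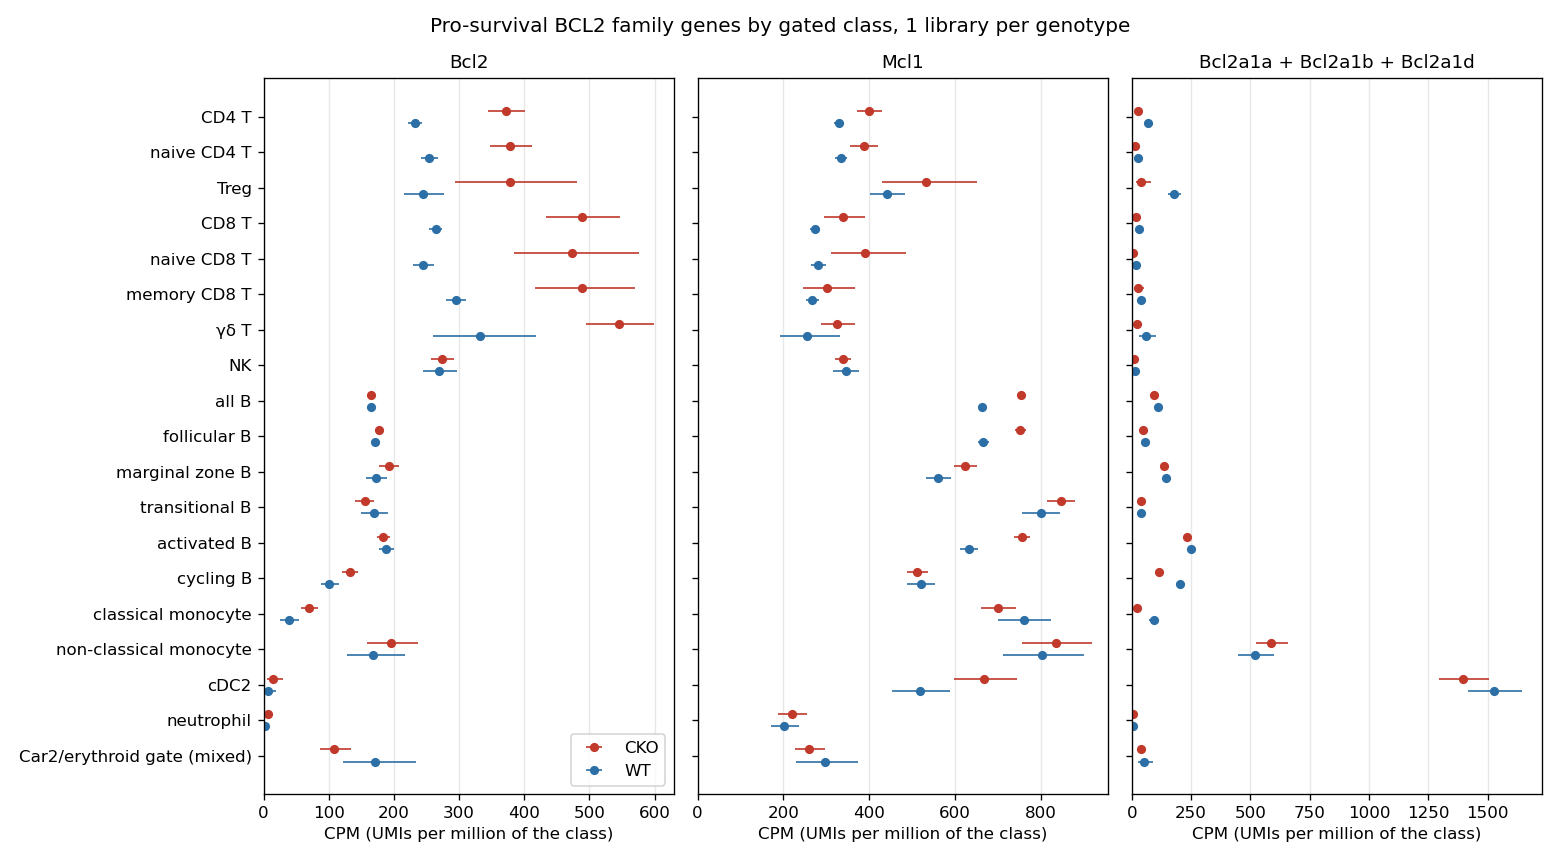
Levels of Bcl2, Mcl1 and the summed Bcl2a1 copies (CPM, linear axes) in 19 gated classes, CKO points above WT points, with exact 95% Poisson intervals over the UMIs of 1 library each. The Bcl2 points of CKO and WT separate in the T cell rows (372 CPM in CKO and 232 CPM in WT CD4 T cells) and coincide in NK (274 CPM in CKO and 270 CPM in WT cells) and all B cells (166 CPM in CKO and 164 CPM in WT cells).

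The remaining members were sparse. Bcl2l1, which protects the mitochondria of erythroid and activated cells, lay between 2.68 CPM (follicular B) and 42.8 CPM (memory CD8 T) in the CKO library and from no UMI (non-classical monocytes) to 55.8 CPM (mixed Car2 gate) in the WT library. Bcl2l11 was led by memory CD8 T cells in the CKO library, at 85.5 CPM, where WT memory CD8 T cells had 50.3 CPM. In the WT library it was led by the mixed Car2 gate (48.3 CPM in CKO and 85.9 CPM in WT cells) and classical monocytes (39.6 CPM in CKO and 72.8 CPM in WT cells), and it was low in cDC2 and neutrophils of both. Bak1 led in non-classical monocytes (99.4 CPM in CKO and 60.0 CPM in WT cells) and classical monocytes (67.2 CPM in CKO and 74.1 CPM in WT cells). Bid was highest in marginal zone B cells (60.3 CPM in CKO and 48.2 CPM in WT cells) and cycling B cells (51.1 CPM in CKO and 54.7 CPM in WT cells), and Bmf in non-classical monocytes (33.8 CPM in CKO and 42.8 CPM in WT cells). Naive CD4 T cells were near the bottom for Bid, with 7.17 CPM in CKO and 7.56 CPM in WT cells.

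Bcl2 was the member most often called in T cells by the rule given below. It was higher in the CKO than in the WT library in each of the 7 T cell classes compared. Of these, naive and memory cells are subsets of the CD4 or CD8 class. Mcl1 was also higher in CKO cells of each of these classes, by smaller ratios, and Bcl2a1b was lower in each. In CD4 T cells Bcl2 had 676 UMIs in 298 CKO cells and 2016 UMIs in 1270 WT cells. That is 372 CPM against 232 CPM, a ratio of 1.60 (1.47 to 1.75). A member was called higher or lower where its ratio was past 1.5-fold with an interval clear of 1, and only where it had at least 20 UMIs over both libraries. By that rule 8 of the 10 members were measured in CD4 T cells, of which Bcl2 was called higher and Bcl2a1b and Bcl2a1d lower. Of all 10165 genes so measured there, 7.04% were called in either direction. Among the 1418 genes with at least 100 CPM in a library, 12 (0.846%) were called higher in CKO CD4 T cells, Bcl2 among them.

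CD8 T cells gave the same direction with a larger ratio. Bcl2 stood at 488 CPM in 80 CKO cells (293 UMIs) and 264 CPM in 1173 WT cells (2532 UMIs), a ratio of 1.85 (1.63 to 2.09). Bcl2 and Bcl2l1 were called higher among 8 members measured and none was called lower, against 6.88% of 9986 genes called either way. At 100 CPM or more, 44 of 1420 genes (3.1%) were called higher. The CKO CD8 T cells also held more cytotoxic RNA, at 1288 CPM against 748 CPM in WT CD8 T cells for a list of 6 genes including Gzma and Nkg7. Its part in the Bcl2 difference was not tested.

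Naive cells, gated on naive T cell genes such as Ccr7 and Lef1, with little memory RNA, showed the difference as well. Naive CD8 T cells had 473 CPM Bcl2 in 30 CKO cells and 245 CPM in 505 WT cells, a ratio of 1.93 (1.55 to 2.38). Bcl2 was the only member called of 6 measured, against a background of 5.14% of genes. Naive CD4 T cells had 379 CPM in 234 CKO cells and 254 CPM in 921 WT cells, a ratio of 1.49 (1.35 to 1.65), an interval clear of 1 beside a ratio just under the size required. None of the 8 members measured in naive CD4 T cells was called, where 4.99% of genes were.

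The other T cell classes rest on fewer cells and on more settings. Treg had 379 CPM Bcl2 in 36 CKO cells and 244 CPM in 150 WT cells, a ratio of 1.55 (1.17 to 2.04). With the cell richest in Bcl2 left out of each library the ratio was 1.42, under a stricter cell filter its call was lost too, and in cells of 3000 to 8000 UMIs it was 1.25, so the call does not hold there. Of 8 members measured in Treg, Bcl2 was called higher and Bcl2a1b lower, and 9.38% of genes were called. γδ T cells had 546 CPM Bcl2 in 116 CKO cells and 333 CPM in 37 WT cells, a ratio of 1.64 (1.28 to 2.13). Bcl2 was called higher and Bcl2a1b lower among 7 members measured there, beside 7.54% of genes called.

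Memory CD8 T cells, gated on Ccl5, Cxcr3, Il2rb and related genes, had 489 CPM Bcl2 in 39 CKO cells and 295 CPM in 516 WT cells, a ratio of 1.66 (1.40 to 1.95). They had 3 of 8 members called higher, Bcl2, Bcl2l1 and Bcl2l11, and none lower, against 7.52% of genes called. The list of 6 cytotoxic genes summed to 1951 CPM in CKO and 895 CPM in WT memory CD8 T cells, and its part in these calls was not tested. Cells without a UMI of Trdc, the γδ receptor constant gene, were 21 of the 39 CKO cells and 501 of the 516 WT cells. That Bcl2 ratio is the least settled of the T cell values. It was 1.49 without the Trdc cells, from fewer CKO cells than the minimum of 30, and 1.002 (0.68 to 1.43) in cells of 3000 to 8000 UMIs. In CD8 T cells as a whole these settings gave 1.79 and 1.62, and in CD4 T cells 1.57 and 1.58.

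**Figure D2:**
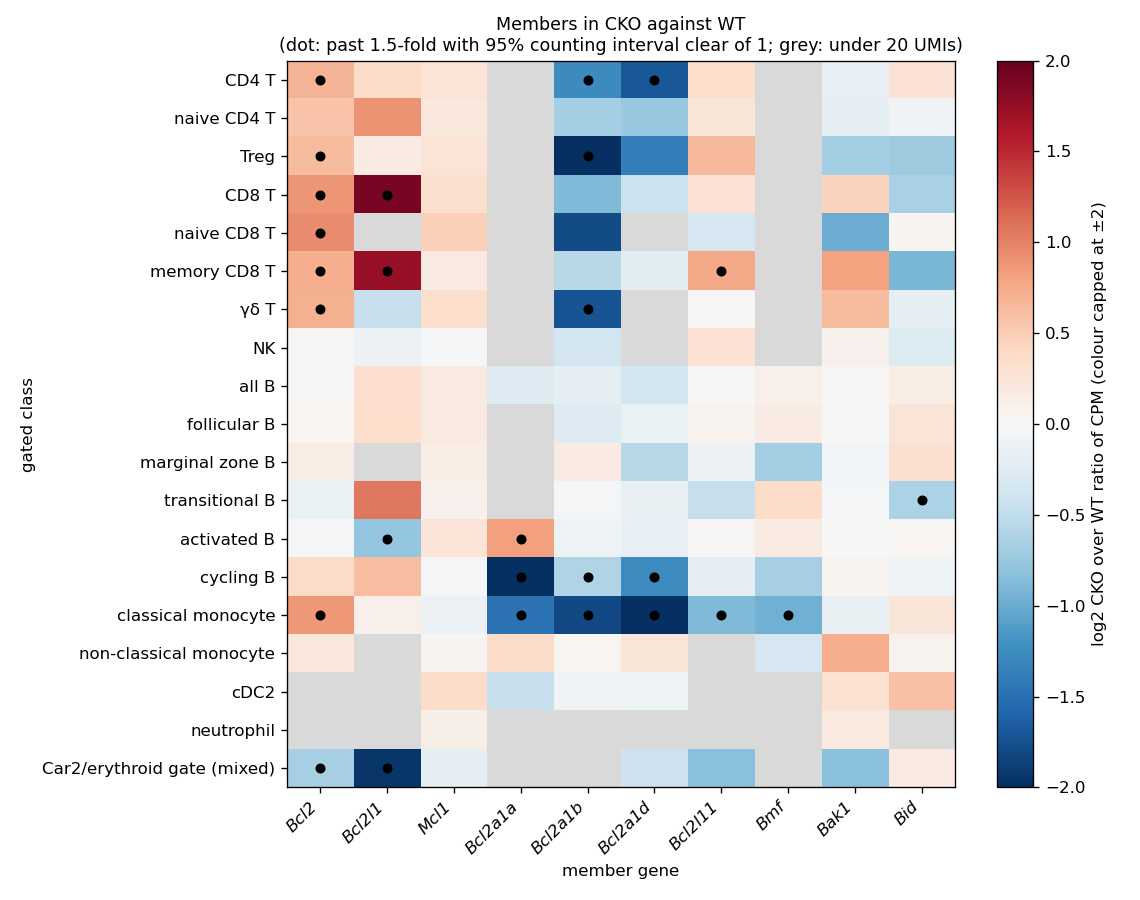
Log2 of the CKO over WT ratio of CPM for the 10 members (columns) in 19 gated classes (rows), 1 library per genotype, colour capped at 2 in size, grey where fewer than 20 UMIs were counted over both libraries. Dots mark ratios past 1.5-fold with an interval clear of 1, which for Bcl2 fall in 6 of the 7 T cell rows, classical monocytes and the mixed Car2 gate.

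In NK and B cells Bcl2 was close between the libraries. NK cells, which like T cells carry much Bcl2, had 274 CPM in 777 CKO cells and 270 CPM in 328 WT cells, a ratio of 1.02 (0.90 to 1.14). None of 7 members was called in NK cells, against 4.13% of genes. All B cells had 166 CPM in 8992 CKO cells and 164 CPM in 6701 WT cells, a ratio of 1.01 (0.98 to 1.04), with none of 10 members called and 4.92% of genes called. These intervals do not reach 1.5-fold in either direction. Whether the T cell ratios differ from the NK and B cell ratios was not tested, since each class has 1 library per genotype.

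Counted per cell, Bcl2 UMIs were few (plot of UMIs per cell). The median was 2 Bcl2 UMIs per CKO CD4 T cell and 1 per WT CD4 T cell, with the same medians among CD8 T cells, while the medians were 1 in both libraries for Treg and 2 in both for memory CD8 T cells. CD8 T cells with 8 or more Bcl2 UMIs made up 17.5% of CKO cells (14 of 80) and 4.77% of WT cells (56 of 1173), while those with 3 made up 8.75% of CKO and 10.49% of WT cells. The cell richest in Bcl2 held 1.78% of the CKO CD4 T total and 5.46% of the CKO CD8 T total.

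Depth differs between libraries, so cells were also thinned to 1000 UMIs each. A Bcl2 UMI was then found in 26.8% of CKO CD4 T cells (21.9 to 32.3%) and 18.9% of WT CD4 T cells (16.8 to 21.2%), where the unthinned shares were 71.5% in CKO and 59.0% in WT cells. Thinned CD8 T shares were 33.8% in CKO (23.6 to 45.2%) and 20.5% in WT cells (18.2 to 22.9%), and the unthinned ones 81.2% in CKO and 70.4% in WT cells. NK cells gave 23.1% in CKO (20.1 to 26.2%) and 17.5% in WT cells (13.6 to 22.1%), a gap in the direction of the T cells that their CPM (274 in CKO and 270 in WT) and unthinned shares (58.8% in CKO and 61.3% in WT cells) do not show, so no order is read from it. All B cells gave 13.7% in both libraries. Neutrophils, which hardly use Bcl2, gave none of 57 CKO cells (upper bound 6.27%) and 1.61% of 62 WT cells, and unthinned 8.47% in CKO and 3.23% in WT cells. Neutrophils had a median of 12623 UMIs in CKO and 12443.5 UMIs in WT, and CD4 T cells 5886 UMIs in CKO and 6492.5 UMIs in WT, so the T cell shares stand above this level of free RNA. Treg gave 19.4% in CKO and 24.7% in WT cells, against the direction of their CPM, so no order is read from them.

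**Figure D3:**
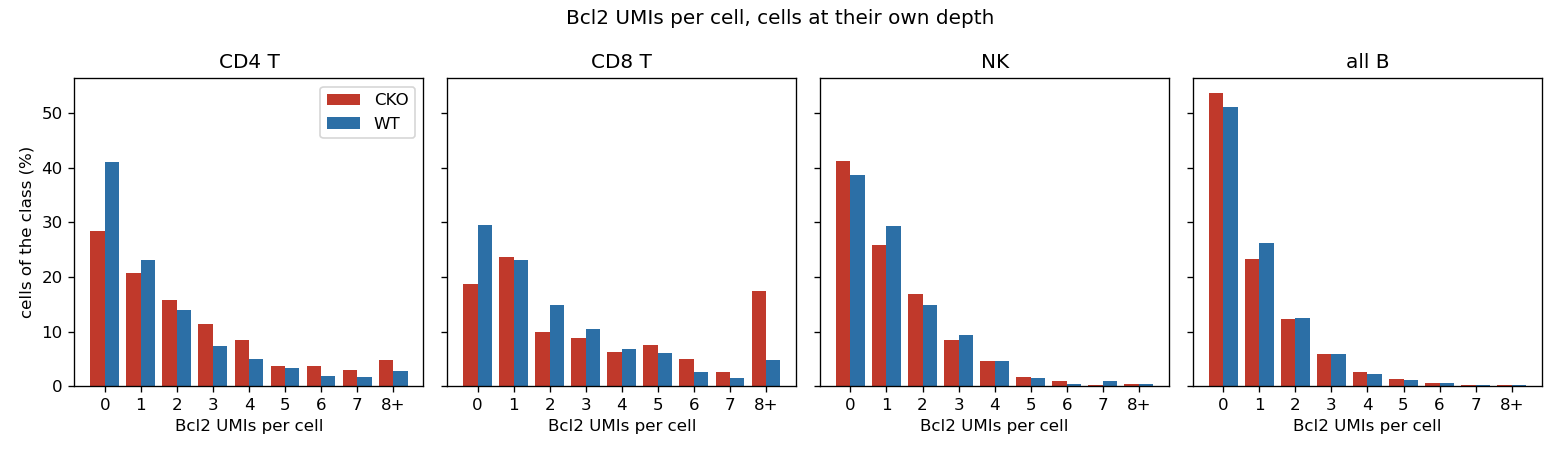
Share of cells (percent, axis from 0) by the number of Bcl2 UMIs per cell, at each cell's own depth, in CD4 T, CD8 T, NK and all B cells of the CKO (red) and WT (blue) library. CKO CD4 T and CD8 T cells have fewer cells without a UMI (28.5% against 41.0% of WT CD4 T cells) and more in the last bar, 8 or more UMIs.

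The A1 copies went the other way in T cells. Bcl2a1b had 36 UMIs in CKO and 417 in WT CD4 T cells, or 19.8 CPM against 48.1 CPM, and Bcl2a1d 10 UMIs in CKO and 155 in WT cells, or 5.50 CPM against 17.9 CPM, a ratio of 0.31 (0.14 to 0.58). Bcl2a1a was all but absent, with no UMI in CKO and 6 UMIs in WT CD4 T cells. Summed, the copies measured 25.3 CPM in CKO and 66.6 CPM in WT CD4 T cells, a ratio of 0.38 (0.28 to 0.51). Without the doublet score that ratio was 0.62, and in cells of 3000 to 8000 UMIs it was 0.54, so its size moved with the cells taken in while its direction did not.

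Other T cell classes gave the same direction with few CKO counts behind it. Treg held 39.6 CPM of the summed copies in the CKO library (7 UMIs) and 178 CPM in the WT library (184 UMIs), a ratio of 0.22 (0.09 to 0.47). Naive CD4 T cells gave 15.8 CPM in CKO and 25.7 CPM in WT cells, a ratio of 0.61 (0.37 to 0.96), which was 0.87 in cells of 3000 to 8000 UMIs, where the call was lost. γδ T cells gave 20.1 CPM in CKO and 59.2 CPM in WT cells (16 CKO and 13 WT UMIs), a ratio of 0.34 (0.15 to 0.77), also lost without the cells richest in A1.

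A1 RNA in WT CD4 T cells lay mostly in memory cells, which were scarce in the CKO library. Memory CD4 T cells had 77.7 CPM of the summed copies in 27 CKO cells and 208 CPM in 219 WT cells. The CKO class falls under the minimum of 30 cells, and 1 cell held 41.2% of its A1 UMIs. Its myeloid list summed to 19916 CPM in CKO and 262 CPM in WT memory CD4 T cells. Naive cells were 234 of 298 CKO and 921 of 1270 WT CD4 T cells. How far the smaller number of memory cells bears on the CD4 T ratio was not tested. CD8 T cells gave 16.7 CPM in CKO and 29.4 CPM in WT cells, a ratio of 0.57 (0.27 to 1.06) whose interval includes 1, and NK cells 0.75 (0.42 to 1.37).

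In B cells, where activation through the antigen receptor raises A1, the copies were close between the libraries. Activated B cells, gated on Egr and Nr4a1 transcripts, held 235 CPM of the summed copies in CKO and 249 CPM in WT cells, a ratio of 0.94 (0.88 to 1.01). All B cells held 95.5 CPM in CKO and 111 CPM in WT cells, a ratio of 0.86 (0.82 to 0.89), and follicular B cells 48.3 CPM in CKO and 56.5 CPM in WT cells. Cycling B cells alone were called, at 115 CPM in 258 CKO and 205 CPM in 160 WT cells, a ratio of 0.56 (0.49 to 0.64), a call lost without the doublet score (0.68), and in cells of 3000 to 8000 UMIs the direction turned, at 2.81. The CKO cycling class also held 8881 CPM of the myeloid list, against 4432 CPM in the WT class, and the part of this in the A1 ratio was not tested.

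Mcl1 was called in none of the 19 classes. Its ratio ranged from 0.88 in the mixed Car2 gate to 1.39 in naive CD8 T cells. It was 400 CPM in CKO and 330 CPM in WT CD4 T cells, a ratio of 1.21 (1.12 to 1.32), and 340 CPM in CKO and 274 CPM in WT CD8 T cells, a ratio of 1.24 (1.07 to 1.43). NK cells gave 338 CPM in CKO and 345 CPM in WT cells. In all B cells it was 754 CPM in CKO and 662 CPM in WT cells, a ratio of 1.14 (1.12 to 1.16). These counting intervals in CD4 T, CD8 T and all B cells are clear of 1, while those of Treg, memory CD8 T, γδ T, transitional B and cycling B cells include 1. An interval from reads of 1 library leaves out the spread between mice.

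Bcl2l1 was read at low counts. Among CD8 T cells it had 18 UMIs in CKO and 77 in WT cells, or 29.99 CPM against 8.03 CPM, a ratio of 3.74 (2.10 to 6.30), and memory CD8 T cells had 42.8 CPM in CKO and 12.7 CPM in WT cells, a ratio of 3.36 (1.73 to 6.07). Without cells holding a Trdc UMI the CD8 T ratio was 2.31 (0.96 to 4.78), and the call was lost in both classes. Naive CD4 T cells had 10.04 CPM in CKO and 5.38 CPM in WT cells, and CD4 T cells 10.46 CPM in CKO and 8.07 CPM in WT cells, neither of them called. Activated B cells had 4.05 CPM in CKO and 6.91 CPM in WT cells, a ratio of 0.59 (0.36 to 0.95), which was 0.70 without the cells richest in Bcl2l1 and 0.67 without the doublet score, neither of them a call.

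Among the BH3-only genes, Bcl2l11 followed Bcl2 more in level than in difference. CD4 T cells had 47.9 CPM in CKO and 37.3 CPM in WT cells, a ratio of 1.28 whose interval starts at 1, CD8 T cells 56.7 CPM in CKO and 46.3 CPM in WT cells, and NK cells 82.8 CPM in CKO and 67.9 CPM in WT cells, none of them called. Memory CD8 T cells were called, at 85.5 CPM in CKO and 50.3 CPM in WT cells, a ratio of 1.70 (1.11 to 2.52), a call that was lost without the cells richest in Bcl2l11 (1.55), without Trdc cells (1.24) and in cells of 3000 to 8000 UMIs (1.83, with an interval that includes 1). Bid had 21 UMIs in CKO and 82 in WT CD4 T cells, or 11.56 CPM against 9.45 CPM, a ratio of 1.22 (0.72 to 1.99), and was not called. Bmf had 5 UMIs in each, too few to be measured. The effector gene Bak1 was called in none of the 19 classes, with 15.96 CPM in CKO and 17.87 CPM in WT CD4 T cells.

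As a balance, the pro-survival share of the 10 members' UMIs was close between the libraries in CD4 T, NK and all B cells. The make-up of that share differed in T cells (plot of member shares). The share leaves out family genes outside the 10 members, such as the effector gene Bax, so its size depends on the genes chosen. A 3′ tag counts a molecule once whatever its length, so UMIs of different genes can be pooled, although capture may differ between genes. The near-identical copies among the pro-survival genes may also be undercounted in such a pool, as given above. The 6 pro-survival genes took 91.2% of member UMIs in CKO CD4 T cells (89.7 to 92.5%) and 90.7% in WT CD4 T cells (89.9 to 91.4%). They took 81.7% in CKO and 83.1% in WT NK cells, and 90.9% in CKO and 90.5% in WT B cells. Naive CD8 T cells were the one class in which these intervals did not overlap, at 94.8% (90.7 to 97.5%) of 193 UMIs in CKO and 89.3% (87.9 to 90.5%) of 2252 UMIs in WT cells.

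Within the pro-survival side Bcl2 took a larger share in CKO T cells. It made up 48.2% of Bcl2 and Mcl1 UMIs in CKO CD4 T cells (45.6 to 50.9%) and 41.4% in WT CD4 T cells (40.0 to 42.8%). In CD8 T cells the shares were 59.0% in CKO and 49.1% in WT cells, in NK cells 44.8% in CKO and 43.9% in WT cells, and in all B cells 18.0% in CKO and 19.9% in WT cells. The A1 copies made up 3.14% of pro-survival UMIs in CKO and 10.47% in WT CD4 T cells, and 4.05% in CKO and 20.04% in WT Treg. Each of these A1 shares would be too low if reads that match several copies went uncounted. Set against its antagonist BIM, Bcl2 took 88.6% of Bcl2 and Bcl2l11 UMIs in CKO CD4 T cells (86.1 to 90.8%) and 86.2% in WT CD4 T cells (84.7 to 87.5%), shares whose intervals overlap.

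**Figure D4:**
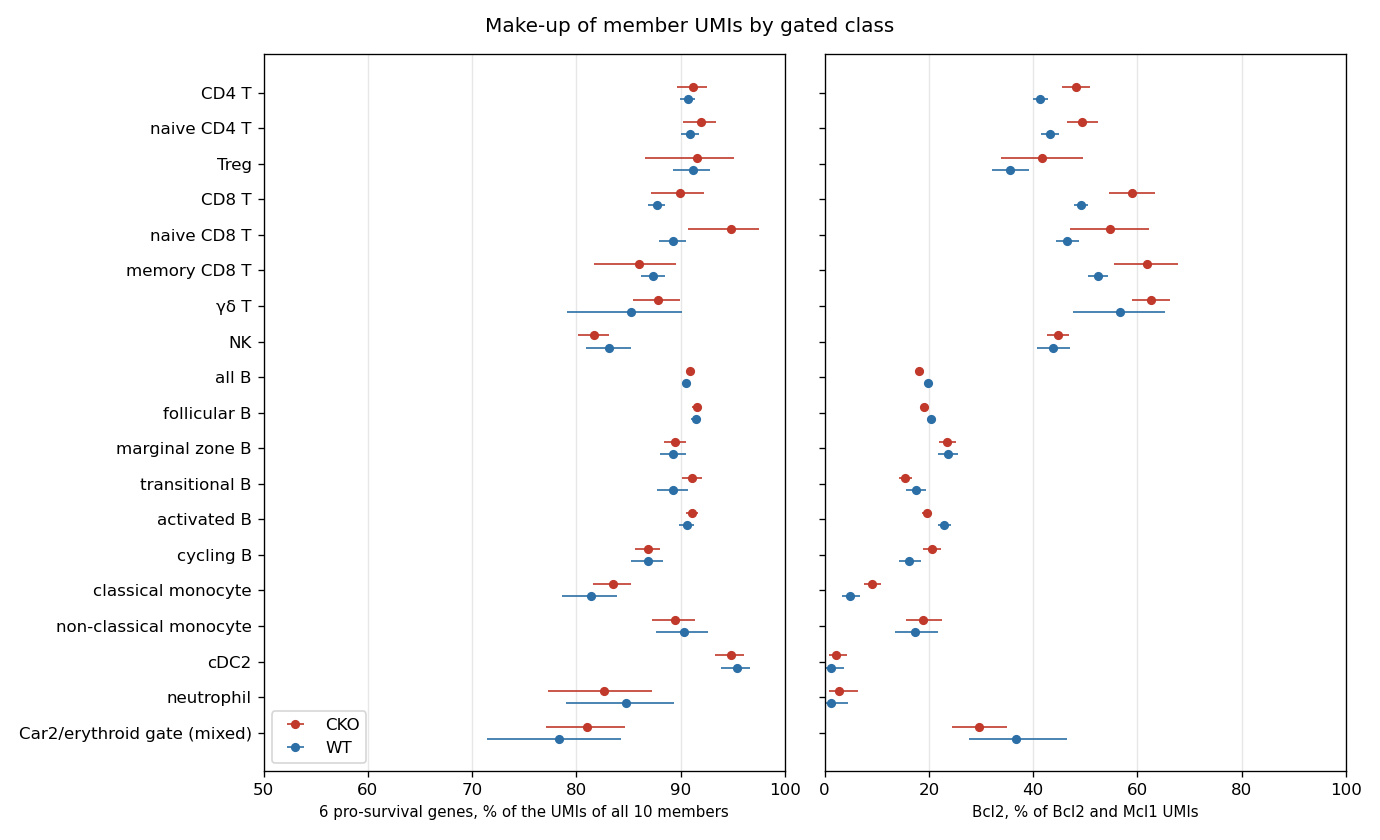
Left, share of the UMIs of all 10 members that fell on the 6 pro-survival genes (percent, axis from 50 to 100). Right, Bcl2 as a percent of Bcl2 and Mcl1 UMIs (axis from 0), in 19 gated classes with CKO points above WT points and exact 95% binomial intervals. The left shares lie close together (91.2% in CKO and 90.7% in WT CD4 T cells), and the right shares are higher in CKO T cells (59.0% against 49.1% in CD8 T cells).

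Among B cell subsets, members differed little. Bcl2 ratios ran from 0.92 in transitional B cells to 1.31 in cycling B cells. Follicular B cells had 177 CPM Bcl2 in CKO and 171 CPM in WT cells with 0 of 9 members called (3.04% of genes), and marginal zone B cells 192 CPM in CKO and 173 CPM in WT cells with 0 of 8 called (4.1%). Transitional B cells had 1 of 9 members called, Bid at 24.3 CPM in CKO and 37.5 CPM in WT cells, a ratio of 0.65 (0.45 to 0.93), beside 4.55% of genes, a call lost without the doublet score (0.78), under a stricter cell filter (0.69) and in cells of 3000 to 8000 UMIs (0.73). The myeloid list summed to 1856 CPM in CKO and 304 CPM in WT transitional B cells, and its part was not tested. Activated B cells had Bcl2a1a higher (8.59 CPM in CKO and 4.89 CPM in WT cells) and Bcl2l1 lower among 10 members, beside 4.04% of genes. Their myeloid list summed to 1237 CPM in CKO and 372 CPM in WT cells, Bcl2a1a is highest in cDC2 (164 CPM in CKO and 227 CPM in WT cells), and the part of other cells' RNA in these calls was not tested. In marginal zone B cells that list summed to 2622 CPM in CKO and 5159 CPM in WT cells. Cycling B cells had the 3 A1 copies lower of 10 members, beside 6.67% of genes, but Bcl2a1b, at a ratio of 0.66, kept a lower call under only 2 of the 8 alternatives that gave an interval, and was 2.55 in cells of 3000 to 8000 UMIs.

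Classical monocytes showed the most member calls of any class. In 167 CKO and 80 WT cells, 1 of 10 members was called higher and 5 lower, beside 8.08% of genes. The lower calls were Bcl2l11, Bmf and the A1 copies Bcl2a1a, Bcl2a1b and Bcl2a1d. These copies can share reads, so they do not count as separate observations. Bcl2 had 69.6 CPM in CKO and 38.3 CPM in WT cells (116 CKO and 30 WT UMIs), a ratio of 1.81 (1.21 to 2.81), which in cells of 3000 to 8000 UMIs was 1.76 (0.97 to 3.39) and no longer a call. Bcl2l11 had 39.6 CPM in CKO and 72.8 CPM in WT cells, a ratio of 0.54 (0.38 to 0.79), and Bmf 13.8 CPM in CKO and 26.8 CPM in WT cells, a ratio of 0.51 that is no call under the stricter filter (0.60) or without the cells richest in Bmf (0.52). The summed A1 copies had 21.0 CPM in CKO and 92.0 CPM in WT cells, a ratio of 0.23 (0.15 to 0.35). Bcl2 thus made up 63.7% of Bcl2 and Bcl2l11 UMIs in CKO cells (56.3 to 70.7%) and 34.5% in WT cells (24.6 to 45.4%). The class carries NK transcripts as given above, NK cells hold Bcl2 at 274 CPM in CKO and 270 CPM in WT, and the part of those cells in the ratio was not tested.

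The other myeloid classes showed no such pattern. Non-classical monocytes had 0 of 8 members called (5.78% of genes), with Bcl2 at 195 CPM in CKO and 168 CPM in WT cells. cDC2 had 0 of 6 called (6.02% of genes), and neutrophils 0 of 2 (7.16% of genes). In the mixed Car2 gate, with 69 CKO and 30 WT cells, Bcl2 (109 CPM in CKO and 172 CPM in WT cells) and Bcl2l1 (14.5 CPM in CKO and 55.8 CPM in WT cells) were called lower among 7 members, beside 13.7% of genes. The Bcl2 call, at a ratio of 0.63, was lost under the stricter filter (0.68), without the doublet score (0.67) and without the cells richest in Bcl2 (0.69), and in cells of 3000 to 8000 UMIs the ratio turned to 1.19.

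The median log2 ratio over measured members was 0.28 in CD4 T and 0.30 in CD8 T cells, beside 0.02 and 0.09 over all genes measured in those classes. Treg and naive CD8 T cells went the other way, at −0.26 and −0.14, beside −0.04 and 0.10 over all genes. Memory CD8 T, naive CD4 T and γδ T cells gave 0.45, 0.07 and 0.02, beside 0.09, 0.03 and −0.12 over all genes. The member median was −0.03 in NK, 0.02 in all B cells and −0.51 in classical monocytes, beside 0.01, 0.04 and 0.02 over all genes. It was lowest in the mixed Car2 gate, at −0.66 beside −0.06.

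Other genes of the pathway were read from 3 lists, whose counts stand beside the shares of all genes called, 7.04% in CD4 T, 6.88% in CD8 T, 9.38% in Treg, 8.08% in classical monocytes, 4.13% in NK and 4.92% in all B cells. Of 14 further BCL2 family genes, 6 were measured in CD4 T cells and none was called, including Bax, the partner effector of BAK, at 130 CPM in CKO and 121 CPM in WT cells. Among CD8 T cells 1 of 6 was called, Bbc3 (PUMA, a p53-induced BH3-only gene), at 8.33 CPM in CKO and 25.02 CPM in WT cells, a ratio of 0.33 (0.11 to 0.79). The p53-induced Pmaip1 (NOXA) had 6 UMIs in CKO and 25 in WT CD4 T cells, a ratio of 1.15 (0.38 to 2.86). In classical monocytes 2 of 6 were called higher, Bad and Bbc3, and Pmaip1 lower. In all B cells none of 9 was called.

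Downstream, 21 genes of the mitochondrial apoptosis machinery were measured in CD4 T cells, with 1 called higher and 1 lower, a share near that of all genes. Casp6, an executioner caspase, had 25.9 CPM in CKO and 15.6 CPM in WT cells, a ratio of 1.66 (1.17 to 2.33). Endog, a mitochondrial nuclease, had 11.01 CPM in CKO and 18.3 CPM in WT cells, a ratio of 0.60 (0.36 to 0.96). In Treg Birc2 alone was called higher of 16, and in NK and all B cells none of 21 was called.

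Of 20 regulators of these genes, Il7r, the receptor for interleukin-7, was called lower in CD4 T, naive CD4 T, CD8 T and naive CD8 T cells. It measured 285 CPM in CKO and 491 CPM in WT CD4 T cells, a ratio of 0.58 (0.53 to 0.63). Among CD8 T cells it measured 303 CPM in CKO and 535 CPM in WT cells, a ratio of 0.57 (0.49 to 0.66), and in naive CD8 T cells 217 CPM in CKO and 533 CPM in WT cells, a ratio of 0.41 (0.30 to 0.55). NK cells, whose Bcl2 was close between the libraries, also had less Il7r, at 21.2 CPM in CKO and 71.9 CPM in WT cells. Treg had 238 CPM in CKO and 228 CPM in WT cells. Lower calls were not confined to T and NK cells. Il7r was also called lower in follicular B, activated B, classical monocytes and the mixed Car2 gate, and higher in transitional B, cycling B and cDC2 cells. A list of 4 T cell genes summed to 3.36 CPM in CKO and 18.9 CPM in WT follicular B cells. It gave 5.03 CPM in CKO and 14.7 CPM in WT activated B cells, and 3.42 CPM in CKO and 15.1 CPM in WT transitional B cells. The part of this T cell RNA in the Il7r calls was not tested.

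Il2rb, the receptor chain shared by interleukin-2 and interleukin-15, was called in opposite directions. It measured 23.7 CPM in CKO and 37.7 CPM in WT CD4 T cells, a ratio of 0.63 (0.45 to 0.86), and 208 CPM in CKO and 96.4 CPM in WT CD8 T cells, a ratio of 2.16 (1.78 to 2.61). Il2rb is also one of the genes that gate memory cells. Treg had Foxo1, Rel and Nfkbia higher and Nfatc1 lower of 17 regulators measured, γδ T cells had Nfkb1 lower of 16, at 89.3 CPM in CKO and 182 CPM in WT cells, and in all B cells none of 19 was called. In CD4 T cells the median log2 ratio was 0.13 for the further family genes, 0.06 for the machinery and −0.05 for the regulators.

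Likeness of pattern was measured as Pearson's r of log2(CPM + 1) over 38 points, the 19 classes in both libraries, among 9377 genes with at least 20 CPM at some point. Classes overlap in cells and points share libraries, so r is a description. The genes most like Bcl2 were Pdcd4 (0.92), Macf1 (0.90) and Ldb1 (0.90). Those most like Mcl1 were Susd3 (0.92), Birc3 (0.91) and Rel (0.90), and those most like Bcl2a1d were Nfkb1 (0.85), Cd274 (0.83) and Lacc1 (0.83). Between members, Bcl2a1b and Bcl2a1d were the closest pair given here, at 0.93, although these copies can share reads, and Mcl1 and Bmf reached 0.80. Bcl2 and Bcl2l11 reached 0.76, while Bcl2 and Mcl1 had 0.02, so the most abundant pro-survival genes were not distributed alike over these classes.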

How the data were processed

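The deposited files hold whole UMI counts per gene and cell barcode, with no normalization, as made by the authors with Cell Ranger from a 10x 3′ library. The submitters' processing notes list Cell Ranger 5.0.0, Seurat 4.0.3 and the mm10 build, and the matrix headers give Cell Ranger 6.0.2. Barcodes were reduced to called cells before deposit, with a lowest total of 501 UMIs among CKO and 500 among WT barcodes.

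Cells with 200 to 6000 genes and under 10% mitochondrial UMIs were kept (12610 CKO and 12679 WT). Doublets were scored with Scrublet (scanpy 1.11.5) at 0.8% per 1000 cells, and scores at or above the expected quantile were left out, 1293 CKO cells (10.3%) and 1394 WT cells (11.0%). Classes were rebuilt by gates on summed UMIs of lineage genes (T at least 2, B at least 3, NK at least 2, then subset genes), and 177 CKO and 195 WT cells past 2 lineage gates stayed unnamed. These names are not the study's own, and values can differ from it for that reason.

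UMIs were summed per class and library and scaled to CPM with exact Poisson intervals. Ratios are CKO over WT with exact conditional binomial intervals, and shares have Clopper-Pearson intervals, all at 95%. No paired or replicated test exists here, and cells were not treated as replicates. On simulated CD4 T counts with known fold changes, the ratio rule recovered its input. Those counts were drawn with the Poisson error that the interval assumes, so the run checks the arithmetic only. They held no spread between cells or mice. All 10 members are named in each class with 30 cells in both libraries, pathway genes where called. The members and lists were chosen with earlier results of these data known. Python 3.11.15, numpy 2.4.6, scipy 1.17.1 and pandas 2.3.3 were used.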

Additional observations from a re-analysis of the deposited data

Results flagged for a closer look

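The values below were set apart because a member was called in opposite directions in different classes. Members called in a single direction are not listed here. The difference between classes was not tested, since each class has 1 library per genotype.

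Bcl2 was higher in CKO than in WT cells in CD4 T (1.60 times), Treg (1.55), CD8 T (1.85), naive CD8 T (1.93), memory CD8 T (1.66), γδ T (1.64) and classical monocytes (1.81), and lower in the mixed Car2 gate (0.632). Bcl2l1 was higher in CD8 T (3.74 times) and memory CD8 T cells (3.36) and lower in activated B cells (0.586) and the mixed Car2 gate (0.259). Bcl2a1a was higher in activated B cells (1.76 times) and lower in cycling B cells (0.162) and classical monocytes (0.359), each at low counts and with reads that its copies can share. Bcl2l11 was higher in memory CD8 T cells (1.70 times) and lower in classical monocytes (0.543).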

How the results depend on the processing

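No paired analysis was possible because there was 1 library per genotype. The Bcl2 ratio of CD4 T cells stayed between 1.55 and 1.62 under the settings tried and was called under each that gave an interval, and that of γδ T cells stayed between 1.55 and 1.82. In CD8 T cells it ranged from 1.62 to 1.94, with 1.62 in cells of 3000 to 8000 UMIs, a setting chosen after the depth gap was seen. The ratio of naive CD4 T cells, reported as 1.49, was 1.51 in cells of that depth and was then a call. In those cells 3 called ratios turned direction: Bcl2 in the mixed Car2 gate (1.19), Bcl2a1b in cycling B cells (2.55) and the summed A1 copies there (2.81). The cause was not tested. The Bcl2 ratios of cycling B (1.31), marginal zone B (1.11) and transitional B cells (0.92), none of them called, crossed 1 there too, at 0.97, 0.91 and 1.05. In cells of that depth other ratios moved by over 1.5 times, to 0.62 for Bcl2a1b in CD4 T cells, 0.29 for Bcl2a1b in Treg, 6.24 for Bcl2l1 in CD8 T cells and 0.27 for Bcl2l11 in classical monocytes. The pro-survival share of all B cells was 91.5% there in both libraries, and 90.8% in WT cells under the stricter filter (500 to 4000 genes, under 5% mitochondrial UMIs). Without the doublet score Bcl2a1b in CD4 T cells was 0.65. Bcl2a1a in classical monocytes was 0.469 without the cells richest in it, where its call was lost, and Bcl2a1b in cycling B cells was called lower under 2 of the 8 alternatives that gave an interval.

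Subtracting the level of the class lowest in each member as free RNA moved the pro-survival share to 92.1% in WT CD4 T, 77.1% in CKO NK, 90.6% in CKO all B and 91.3% in WT all B cells. Members past 1.5-fold were then 5 in CD4 T (3 without it), 4 in CD8 T (2) and 2 in all B cells (0). The share of all genes called under that subtraction was not computed, so the rise is not read as a result about these members. Bcl2l1 in activated B cells then had a ratio of 0.195. That subtraction takes real expression too for genes used by every class, such as Mcl1. Low counts in 36 CKO Treg, 39 memory CD8 T and 30 naive CD8 T cells limit those values, and no spread between mice is known.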
